A study of Mus musculus with 16 samples.

Results

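The TRIM genes examined here encode the tripartite motif family, a large group of ubiquitin ligases. Members were all rows of the deposited table whose symbol is Trim followed by a number and at most 1 letter, apart from 1 symbol that the rule leaves out. This gave 66 of the 47643 genes in the table. Of these members, 31 had a mean of at least 1 TPM (transcript share scaled to a sum of 1000000 per sample) over the 16 samples and entered the tests, together with all other genes at that level, 10628 in total. The remaining 35 members lay under 1 TPM, and 10 of them were listed at 0 in every sample.

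A TRIM protein usually joins a RING finger, which recruits a ubiquitin-conjugating E2 enzyme, to B-box zinc fingers and a coiled coil through which the proteins pair, and ends in a domain that binds the substrate. In striated muscle, Trim54 and Trim55 associate with microtubules and the sarcomere, Trim72 (mitsugumin 53) seals tears in the sarcolemma, and Trim32 marks myofibrillar proteins for degradation. Many other members are induced by interferon and restrict viruses or tune innate immune signalling, and the TIF1 members Trim24, Trim28 and Trim33 act on chromatin.

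RNA was sequenced from the tibialis anterior, a muscle of the lower hindlimb, of 4 groups of 4 male C57BL6/J mice, with WT and UBR4 mKO animals of 6 and of 24 months of age. UBR4 is a large ubiquitin ligase of the N-degron pathway. All 4 groups carried floxed Ubr4 alleles, and mice of both genotypes were injected with tamoxifen as young adults. Only UBR4 mKO mice also carried a tamoxifen-inducible Cre under the skeletal muscle promoter of ACTA1, so other cells of the muscle kept Ubr4, and WT animals lacked Cre. Each sample came from a separate mouse. The comparisons asked how the family differs between genotypes at each age, how it changes with age in each genotype, and whether the genotype effect differs between ages.

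Every library summed to 1000000 TPM, so depth is unknown and no counting interval can be given. Between 16557 and 17599 genes were above 0 in a sample, and log2 values of samples in the same group correlated at 0.965 to 0.993 over genes. Ubr4, the targeted gene, was at 12.2 ± 2.82 TPM (SD, n = 4) in WT and 5.49 ± 0.749 TPM in UBR4 mKO muscles at 6 months, with no overlap of the groups. At 24 months it was at 18.3 ± 1.89 and 9.14 ± 4.33 TPM (SD, n = 4 each), with 1 UBR4 mKO muscle at 14.6 TPM. All 10 skeletal muscle markers, such as Acta1 and Ckm, were expressed in every sample. Their summed level was 82492 to 92193 TPM in 6-month-old WT and 105916 to 116061 TPM in 6-month-old UBR4 mKO muscles, without overlap, and 100763 to 111044 and 98827 to 113905 TPM at 24 months. All mice were labelled male, but Xist, a transcript of the inactive X chromosome of females, was at 0.711 to 23.8 TPM in all 8 libraries of 6-month-old mice and at most 0.0252 TPM in those of 24-month-old mice. Over 4 Y-linked genes the summed level was 34.6 to 59.6 TPM at 24 months and 4.36 to 25.5 TPM in 6-month-old WT muscles. It was 30.7 to 45.9 TPM in 3 of the 6-month-old UBR4 mKO muscles and 0.181 TPM in the fourth. Xist in all 8 of these libraries goes against the label male, and whether samples were mixed or exchanged cannot be told from the labels. Counts of members and of interferon response genes, but not of cell type markers, were also made without the fourth UBR4 mKO library, which had the highest Xist and the lowest Y-linked level. The third 24-month-old UBR4 mKO library also stood apart, with a median-of-ratios factor (a measure of library scale) of 0.925 against 1.04 to 1.12 in the other 3, and the same counts were made without it. By this factor the fourth 6-month-old WT library was farther off, at 0.715 against 0.854 to 1.00, and its removal is given among those of single samples. Mitochondrially encoded genes took up 56.3% ± 3.01 of TPM in 6-month-old WT, 47.9% ± 1.71 in 6-month-old UBR4 mKO, 50.1% ± 1.85 in 24-month-old WT and 48.6% ± 1.57 in 24-month-old UBR4 mKO muscles (SD, n = 4 each). Because TPM is a share of a fixed sum, the same comparisons were also run after each sample was divided by its median-of-ratios factor, the median ratio of its genes to the mean sample.

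Most members with an interferon-responsive motif near their start belong to the interferon-linked branch. The interferon-stimulated response element, the site bound by interferon-regulated transcription factors, was searched as GAAANNGAAA on both strands from 250 bases before to 50 bases after each RefSeq start on GRCm38.p6. It was present in 9 of the 51 members with a promoter entry, or 17.6%, against 3.99% of 27024 genes. Among interferon-linked members it was present in 8 of 15, and the other holder was Trim2. The following stretches of 30 bases show the element in capitals, on the strand of the gene, with 10 bases on either side, and are given because they belong to the members whose response is described later.

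Trim5 (chr7:104288136-104288165, minus strand): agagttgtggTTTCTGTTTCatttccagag

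Trim12a (chr7:104315466-104315495, minus strand): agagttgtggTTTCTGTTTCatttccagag

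Trim12c (chr7:104353359-104353388, minus strand): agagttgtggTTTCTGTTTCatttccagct

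Trim30a (chr7:104465210-104465239, minus strand): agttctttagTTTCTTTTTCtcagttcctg

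Trim30d (chr7:104507871-104507900, minus strand): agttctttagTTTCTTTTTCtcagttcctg

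Trim34a (chr7:104244457-104244486, plus strand): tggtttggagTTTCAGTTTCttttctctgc

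Trim21 (chr7:102565450-102565479, minus strand): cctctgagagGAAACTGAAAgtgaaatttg

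Trim26 (chr17:36836976-36837005, plus strand): ccgcttccgaTTTCACTTTCcttttctcgg

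The window of Trim5 was the same as that of Trim12a over all 30 bases, and that of Trim30a the same as that of Trim30d. In Trim21 the element reads in the direction of the gene, and in the other 7 it lies on the opposite strand. A second copy overlapped the first in Trim21 and in Trim26. A cluster of 10 members lies on chromosome 7, in which Trim6, Trim34a, Trim5, Trim12a, Trim34b, Trim12c, Trim30b, Trim30c, Trim30a and Trim30d are found within 289.1 kb, from 104218793 to 104507849 on GRCm38. A match of this kind is a description of letters and not of bound protein.

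Trim54, the most abundant member, was searched for muscle motifs because its RNA exceeds that of all other members tested. Its gene lies on chromosome 5 from 31116712 to 31137630 on the plus strand in GENCODE vM21. The 250 bases before the RefSeq start (chr5:31116362-31116611, plus strand) held 2 copies of CATTCC, the letters of the muscle CAT element, and 1 copy of CAGCTG, an E-box of the kind bound by myogenic factors. They are shown with these motifs in capitals, the second CATTCC being read from the opposite strand as GGAATG.

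Trim54: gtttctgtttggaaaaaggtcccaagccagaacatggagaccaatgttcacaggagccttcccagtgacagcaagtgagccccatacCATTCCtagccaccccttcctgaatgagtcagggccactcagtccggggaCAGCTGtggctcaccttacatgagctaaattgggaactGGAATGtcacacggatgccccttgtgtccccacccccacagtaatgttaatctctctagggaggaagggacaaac

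Such letters are common. CATTCC was in 17.6% of the members' promoters against 16.6% of all promoters, and CAGCTG in 29.4% against 18.3%. The RefSeq window of the same length for Trim72 held none of the motifs searched, and it lies inside the gene as GENCODE vM21 annotates it. The MEF2 letters CTANNNNTAG were in 0 of the 51 members and in 4.23% of all promoters.

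The family was dominated by a few muscle proteins. Trim54 was at 307 TPM on average over all 16 samples, rank 217 of all genes, and Trim72 followed at 96.6 TPM, rank 613. Next came Trim35, a ligase linked to pyruvate kinase control, at 42.5 TPM, and Trim55 at 35.0 TPM. Trim16, which acts on damaged lysosomes, had a mean of 17.2 TPM, Trim28, the KRAB corepressor, 13.1 TPM and Trim41 11.6 TPM. Trim8, Trim44 and Trim7 completed the 10 highest with 10.4, 10.1 and 9.65 TPM. Trim32, in spite of its role in muscle, was at 3.98 TPM, rank 7000. Over all members the summed level in 6-month-old WT muscles was 539 ± 58.1 TPM (SD, n = 4), of which Trim54 made up 51.9%.

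**Figure D1:**
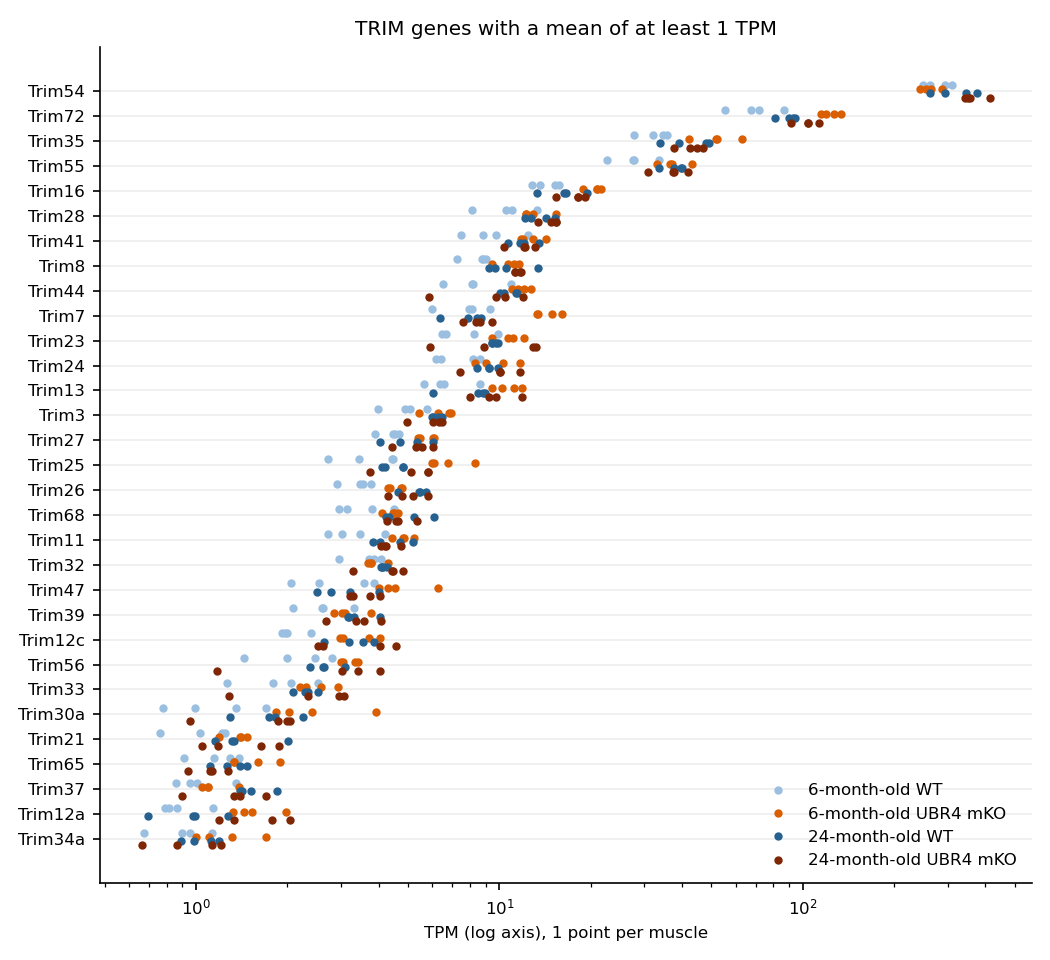
TPM of the 31 members with a mean of at least 1 TPM, on a log axis, with 1 point for each of the 16 muscles and colours for the 4 groups. Trim54, from 244 to 413 TPM, stood above every other member in every sample, and Trim72, from 55.4 to 133 TPM, came second.

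Among the muscle members at 6 months, Trim72 was higher in UBR4 mKO muscles whereas the TPM of Trim54 overlapped between genotypes. Trim72 had 67.3, 86.9, 71.6 and 55.4 TPM in the WT and 115, 119, 127 and 133 TPM in the UBR4 mKO muscles. Every knockout muscle exceeded every WT muscle (exact permutation test over 70 assignments, two-sided, unadjusted p = 0.0286, the smallest it can give). The log2 fold change was 0.83 with an SE (standard error) of 0.11 and a limma adjusted p of 9.42e-05, or 1.76 times the WT mean. It kept this call under every alternative tried, with the highest adjusted p, 0.0353, from the Dunn test. Skeletal muscle markers were higher in 5 of 10 cases at this age and lower in 0, with a median log2 fold change of 0.24. Among all genes 43.7% were higher and the median was 0.33. After median-of-ratios scaling 1 of the markers was higher and 2 lower (median -0.11), against 6.66% and 10.2% of all genes. The part of these markers in the change of Trim72 was not tested. Trim72 shares 18.6% of its transcript without mismatch with the annotated gene Gm15533. How reads of that stretch were assigned is not given in the sources used here.

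Trim54 had 310, 295, 248 and 263 TPM in WT and 256, 265, 244 and 287 TPM in UBR4 mKO muscles, and the ranges overlapped. Its log2 fold change was -0.08 (95% interval -0.29 to 0.12, limma adjusted p = 0.512), below that of the median gene, 0.33. Relative to Trim54, the level of Trim72 was 0.253 ± 0.0449 in WT and 0.470 ± 0.0339 in UBR4 mKO muscles (SD, n = 4 each), a ratio that no scaling of the samples changes. The share of Trim54 in the summed level of the family was 51.9% ± 3.46 in WT and 39.9% ± 1.72 in UBR4 mKO muscles (SD, n = 4 each).

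Trim55, which lies on chromosome 3 from 19644474 to 19692421, had 27.6, 33.5, 27.7 and 22.6 TPM in WT and 33.1, 36.6, 37.1 and 43.0 TPM in UBR4 mKO muscles. Its groups overlapped only in that 1 WT sample was above the lowest UBR4 mKO sample, and the log2 fold change was 0.43 (SE 0.12, limma adjusted p = 0.0105). Trim32 had 2.96 to 4.07 TPM in WT and 3.68 to 4.29 TPM in UBR4 mKO muscles, with a log2 fold change of 0.09 (95% interval -0.15 to 0.34, limma adjusted p = 0.535).

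**Figure D2:**
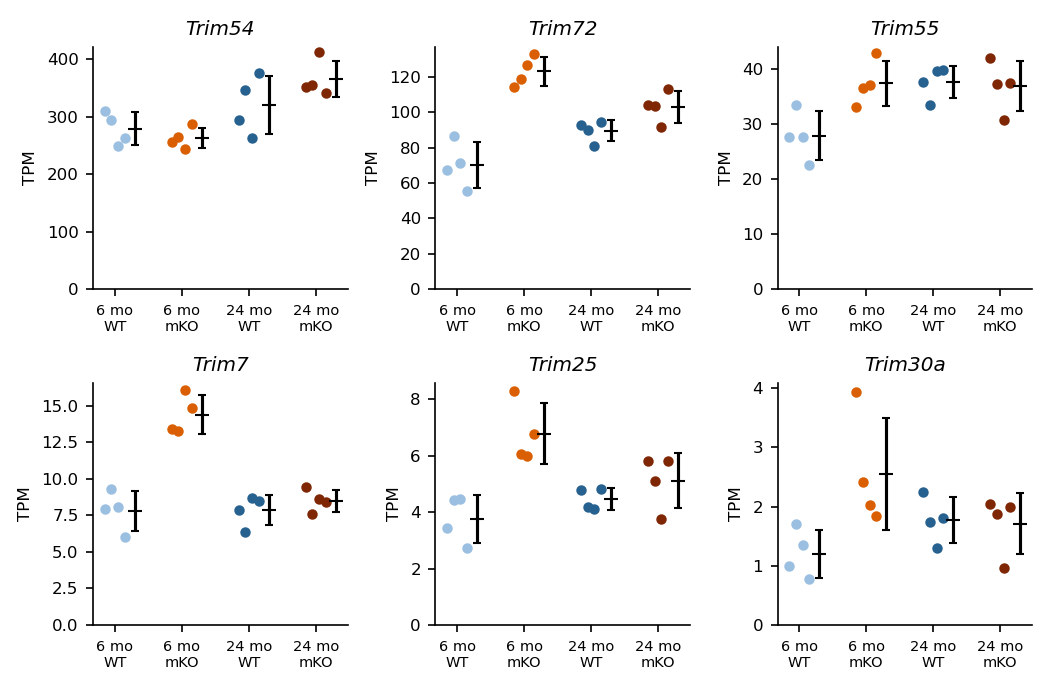
TPM of 6 members in each of the 16 muscles, with the mean and SD of each group of 4 beside the points and a linear axis from 0. At 6 months the UBR4 mKO points of Trim72, Trim7, Trim25 and Trim30a lie above all WT points, while those of Trim54 lie among them.

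Interferon-linked members were higher in 6-month-old UBR4 mKO muscles in 5 of the 8 tested cases, and 0 were lower, where 43.7% of all genes tested were called higher. After median-of-ratios scaling 1 of the 8, Trim25, was called higher, against 6.66% of all genes, with all 8 above 0 and a median log2 fold change of 0.30 against -0.018 for all genes. Without the third 24-month-old UBR4 mKO library 6 of the 8 were called (53.6% of all genes), without the fourth 6-month-old UBR4 mKO library 5 (29.1%), and without both 7 (40.5%). Their median log2 fold change was 0.64 against 0.33 for all genes tested. Trim30a, which restrains Toll-like receptor signalling, had 0.995, 1.70, 1.35 and 0.775 TPM in WT and 3.93, 2.42, 2.03 and 1.84 TPM in UBR4 mKO muscles. This was the largest change of any member tested, a log2 fold change of 1.02 (SE 0.28, limma adjusted p = 0.00947), and 1 UBR4 mKO muscle stood well above the other 3. Trim25, the ligase that activates the RNA sensor RIG-I, had 3.45, 4.43, 4.46 and 2.71 TPM in WT and 8.30, 6.08, 5.99 and 6.78 TPM in UBR4 mKO muscles. Its log2 fold change was 0.85 (SE 0.17, limma adjusted p = 0.00156), and the groups did not overlap.

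Smaller rises passed the test for Trim12c (0.70, limma adjusted p = 0.00715) and Trim26 (0.40, limma adjusted p = 0.0115), on the log2 scale and each without overlap. Trim12a, at 0.73 and also without overlap, had means of 0.903 and 0.984 TPM in 6- and 24-month-old WT muscles. It passed the filter of 1 TPM over all samples through the UBR4 mKO groups, at 1.57 and 1.59 TPM. Its difference is therefore in part fixed by the filter, and its call, counted among the 5, is not read as a result. The filter bears in the same way on Trim34a, at 0.913 TPM in 6-month-old WT and 1.28 TPM in UBR4 mKO muscles of that age. Of the 6 interferon-linked members with a mean of at least 1 TPM in every group, 4 were called higher. The antiviral ligase Trim56 (0.58), Trim34a (0.44) and the cytosolic antibody receptor Trim21 (0.35) had log2 fold changes above 0 that did not pass the test, with limma adjusted p from 0.0908 to 0.160. Trim12c is 94.2% identical to Trim5 over 98.8% of its transcript and 96.0% identical to Trim12a over 25.9%, and Trim34a is 98.7% identical to Trim34b over 70.5%. How the authors shared reads between such copies is not given in the sources used here, so the values of single genes in this cluster are uncertain.

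Leukocyte markers were also higher at 6 months. Of 16 leukocyte markers, 8 were at a mean of at least 1 TPM and all 8 were higher in 6-month-old UBR4 mKO muscles, with a median log2 fold change of 1.98, also after median-of-ratios scaling (1.67). The summed leukocyte level was 19.8 to 29.7 TPM in WT and 63.3 to 232 TPM in UBR4 mKO muscles, and none of the 15 markers found in the table was at 0 in every sample. Denervation and regeneration markers were higher in 5 of 6 cases (median 1.61), all 5 also after scaling, with a summed level of 18.3 to 26.3 TPM in WT and 38.1 to 49.8 TPM in UBR4 mKO muscles. Fibroblast markers were higher in 3 of 5 cases (median 0.83, 1 after scaling) and endothelial markers in 3 of 5 (median 0.42, 0 after scaling), whereas 0 of 5 erythroid markers were called (median -0.30). The part of these markers in the change of Trim30a and the other members was not tested. In bulk muscle, a different number of cells of a type and a different amount of RNA per cell cannot be told apart. Interferon response genes outside the family were also higher, in 15 of the 19 tested, with 0 lower and a median log2 fold change of 0.70, against 43.7% and 0.33 for all genes. After median-of-ratios scaling 2 of the 19 were higher, with a median of 0.38, against 6.66% and -0.018 for all genes. Without the fourth 6-month-old UBR4 mKO library 14 were called higher (29.1% of all genes), and without the third 24-month-old one 16 (53.6%). Without both of these libraries 17 were called higher (40.5%). Among those called, the largest were Irf7 (1.38), Isg15 (0.99) and Rsad2 (0.89), on the log2 scale, with limma adjusted p of 0.0192, 0.0425 and 0.0154.

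Of the members outside these branches, Trim7, a ligase known as a partner of glycogenin, the primer of glycogen synthesis, had the second largest rise of the 31 members tested. It had 7.94, 9.30, 8.10 and 6.00 TPM in WT and 13.4, 13.3, 16.1 and 14.9 TPM in UBR4 mKO muscles, so the lowest UBR4 mKO sample was well above the highest WT sample. The log2 fold change was 0.88 (SE 0.13, limma adjusted p = 0.000219), called under every alternative tried, with a highest adjusted p of 0.0457. Trim35 rose from 32.6 ± 3.55 to 52.2 ± 8.50 TPM and Trim16 from 14.3 ± 1.37 to 20.6 ± 1.23 TPM (SD, n = 4 each), with limma adjusted p of 0.00162 and 0.00240. Trim41, Trim8 and Trim44 were also higher, by 0.42, 0.34 and 0.51 on the log2 scale, with limma adjusted p of 0.0186, 0.0247 and 0.0298, and Trim8 went to -0.011 after median-of-ratios scaling.

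In the remaining branches few members could be tested, and 1 was called higher in each of the 3 branches below, against 43.7% of all genes. In the TIF1 branch Trim24 was higher (0.42, limma adjusted p = 0.0300), while Trim33 (0.41) and Trim28 (0.31) did not pass the test on the log2 scale, and the fourth member, Trim66, was too low to be tested. Of the NHL and filamin members, which end in a propeller or a filamin repeat, Trim3 was higher (0.37, limma adjusted p = 0.0223) and Trim32 was not called. Trim13, which sits in the membrane of the endoplasmic reticulum, was higher (0.66, limma adjusted p = 0.00407), and Trim23, which carries an ARF GTPase domain, was at 0.48 (limma adjusted p = 0.0579). COS-box members other than Trim54 and Trim55 bind microtubules in neurons and other cells and were all under 1 TPM.

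Over the whole family at 6 months, 19 of the 31 tested members were higher in UBR4 mKO muscles and 0 lower by limma, with 23 at an unadjusted p under 0.05. Among all genes tested 43.7% were called higher and 1.15% lower, and the median log2 fold change was 0.43 for members and 0.33 for all genes. In 16 members every knockout muscle exceeded every WT muscle, which held for 39% of all genes. Of the 29 members with a mean of at least 1 TPM in every group, 18 were called higher. The count of 19 became 12 without the fourth 6-month-old WT sample, which had the highest mitochondrial share, where 24.7% of all genes were called higher, and 14 without the fourth UBR4 mKO sample (29.1% of all genes). Leaving out the third 24-month-old UBR4 mKO library gave 22 (53.6% of all genes). It was 19 with a Y-linked covariate in the fit (42.4%) and 21 (40.5%) without both the fourth 6-month-old and the third 24-month-old UBR4 mKO library (together the 2 libraries that stood apart), settings chosen after seeing the data. The Kruskal-Wallis test with Dunn comparisons, named in the methods of the study, called 13, against 23.1% of all genes higher and 0.263% lower.

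**Figure D3:**
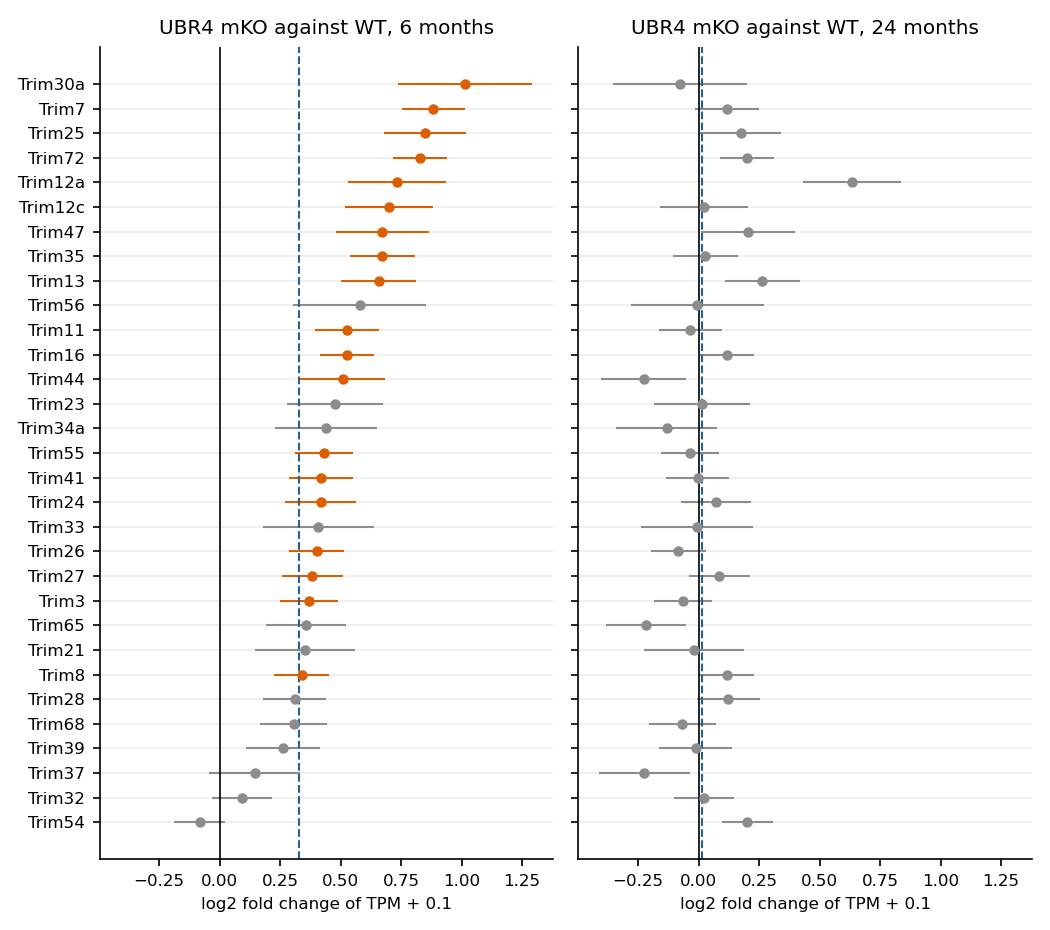
Log2 fold changes of TPM + 0.1 between UBR4 mKO and WT muscles for the 31 members tested, at 6 months on the left and at 24 months on the right, with standard errors as bars. Orange points passed limma's adjusted p of 0.05, and the dashed line is the median of all genes tested, 0.33 on the left and 0.013 on the right.

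After median-of-ratios scaling, which put the median gene at -0.018, 4 members were called at 6 months, against 6.66% of all genes higher and 10.2% lower. Trim7 (0.53, limma adjusted p = 0.00264), Trim25 (0.50, limma adjusted p = 0.00964) and Trim72 (0.47, limma adjusted p = 0.000148) were higher. Trim54 was lower by this scaling, with a log2 fold change of -0.44 (limma adjusted p = 0.0252), and scaled levels of 328 ± 41.4 in WT and 241 ± 11.4 in UBR4 mKO muscles (SD, n = 4 each) that did not overlap. With the mitochondrial genes left out and the rest rescaled, the same 4 members and Trim35 (0.42) were called, Trim54 at -0.34 (limma adjusted p = 0.0185). In this setting 9.07% of all genes were higher and 5.87% lower. Trim30a kept 0.69 on the log2 scale after median-of-ratios scaling without a call (limma adjusted p = 0.0627), and Trim55 was at 0.08. The summed level of the family changed direction with the scaling, from 119 TPM higher in UBR4 mKO muscles to 26.2 lower.

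**Figure D4:**
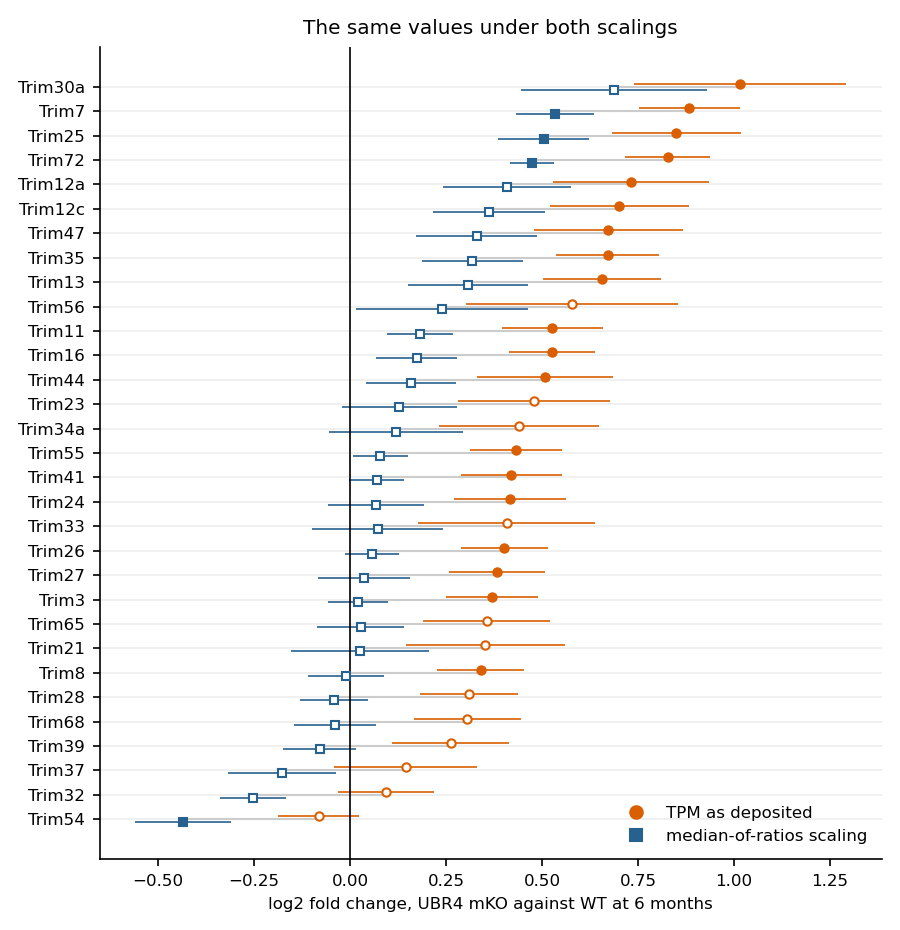
Log2 fold changes of the 31 members at 6 months from TPM as deposited (circles) and after median-of-ratios scaling (squares), with standard errors as bars and filled symbols for an adjusted p under 0.05. Only Trim7, Trim25 and Trim72 are filled and above 0 in both, and Trim54 is filled after scaling alone, below 0.

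At 24 months no member passed the test between genotypes. Limma called 0 of the 31 members, with 1 at an unadjusted p under 0.05, against 0.63% of all genes. The Dunn test called 0 of all 10628 genes in this comparison, so its 0 says nothing of the members. The median log2 fold change was 0.014 for members and 0.013 for all genes. The largest change, not called, was that of Trim12a. This member was tested only because its UBR4 mKO levels lifted its mean over the filter, so its change is given as values alone. It had 1.27, 0.994, 0.694 and 0.978 TPM in WT and 2.04, 1.34, 1.19 and 1.77 TPM in UBR4 mKO muscles. The groups overlapped in 1 sample, and the log2 fold change was 0.63. Trim72 had 92.9, 90.1, 81.3 and 94.3 TPM in WT and 104, 104, 91.5 and 113 TPM in UBR4 mKO muscles, and its log2 fold change was 0.20 (95% interval -0.02 to 0.42, limma adjusted p = 0.599).

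Trim54 was at 320 ± 50.6 TPM in WT and 365 ± 32.1 TPM in UBR4 mKO muscles of this age (SD, n = 4 each), with a log2 fold change of 0.20 (95% interval -0.01 to 0.41, limma adjusted p = 0.565). Trim7 (0.12), Trim25 (0.17), Trim30a (-0.08) and Trim55 (-0.04) had smaller log2 fold changes, with limma adjusted p from 0.854 to 0.982. Of the 8 interferon-linked members tested, 3 were above 0 and 5 below, with a median log2 fold change of -0.012, which was 0.16 without the third UBR4 mKO sample. The summed leukocyte level was 36.3 to 76.9 TPM in WT and 90.9 to 364 TPM in UBR4 mKO muscles, and limma called 0 of the 8 leukocyte markers, with all 8 above 0, 6 at an unadjusted p under 0.05 and a median of 1.03. Adipocyte markers were at 7.59 to 19.5 TPM in WT and 11.0 to 70.2 TPM in UBR4 mKO muscles, with 0 of 3 called and 3 at an unadjusted p under 0.05 (median 1.19). Median-of-ratios scaling also gave 0 called members, against 0.913% of all genes. Leaving out the third UBR4 mKO sample, the count stayed at 0 and the median log2 fold change of members was 0.11.

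With age in WT muscles, 9 of the 31 members were higher at 24 than at 6 months and 0 lower, against 24% of all genes higher and 1.07% lower. The median log2 fold change was 0.33 for members and 0.26 for all genes. Trim12c rose most, from 2.00, 2.39, 1.97 and 1.92 TPM to 3.55, 2.64, 3.18 and 3.85 TPM (log2 fold change 0.64, SE 0.18, limma adjusted p = 0.0204). Trim26, which dampens or promotes antiviral signalling depending on the virus, rose from 3.54, 3.77, 3.48 and 2.92 TPM to 5.41, 5.46, 4.64 and 5.72 TPM without overlap (log2 fold change 0.62, SE 0.11, limma adjusted p = 0.00189). Trim37, a ligase of centrosome and peroxisome control, rose from 1.04 ± 0.215 to 1.55 ± 0.212 TPM (SD, n = 4 each; log2 fold change 0.53, limma adjusted p = 0.0465).

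Of the muscle members, Trim55 (0.44, limma adjusted p = 0.0168) and Trim72 (0.37, limma adjusted p = 0.0262) were higher in old WT muscles on the log2 scale, with overlapping groups. Trim54 (0.19, 95% interval -0.02 to 0.40) and Trim32 (0.19, 95% interval -0.06 to 0.43) were not called. Skeletal muscle markers were higher in 7 of 10 cases and lower in 2 (median 0.34), and after median-of-ratios scaling higher in 1 and lower in 2, and their part in these values was not tested. Trim25 and Trim30a were at 0.27 and 0.55, with limma adjusted p of 0.213 and 0.131. Leukocyte markers were higher too, in 5 of the 8 tested against 24% of all genes, with a median log2 fold change of 1.38. After median-of-ratios scaling 1 of the 8 was called, with a median of 1.13 and all 8 above 0. Denervation and regeneration markers were higher in 4 of 6 cases (median 1.03, 3 called after scaling), and interferon response genes in 9 of 19 (median 0.59, 1 called higher and 1 lower after scaling, and 2 higher with the Y-linked covariate). Schwann cell markers were higher in 2 of 5 cases (median 0.35, 0 called after scaling). Fibroblast markers were lower in 1 of 5 (median 0.17), also after scaling. Limma called 0 of 5 endothelial markers (median -0.11), with 3 lower after scaling. The part of these lists in the rise of Trim12c and Trim26 was not tested. Xist was higher in every 6-month-old library than in any 24-month-old one, and age and this difference cannot be told apart.

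The count of 9 depended on single libraries. Without the first, the third or the fourth 6-month-old WT sample it was 4, 2 or 1, where 16.6%, 11.9% and 8.41% of all genes were called higher, and without the second it was 15 (45.7%). Without the first or the fourth 24-month-old WT sample it was 2 (11.9% and 9.91%), and leaving out the third 24-month-old UBR4 mKO library, through the spread the groups share, it was 15 (37.6%). Leaving out the fourth 6-month-old UBR4 mKO library gave 7 (23.7%). A Y-linked covariate gave 6 (23%). The Dunn test called 0 of all 10628 genes with age in WT, so its 0 says nothing of the members. After median-of-ratios scaling Trim26 alone was called, higher by 0.35 on the log2 scale (limma adjusted p = 0.00577), against 4.44% of all genes higher and 5.33% lower.

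With age in UBR4 mKO muscles, 1 member was higher and 1 lower. Background shares were 2.45% of all genes higher and 3.85% lower. Trim54 rose from 256, 265, 244 and 287 TPM at 6 months to 352, 356, 413 and 342 TPM at 24 months, without overlap (log2 fold change 0.47, SE 0.11, limma adjusted p = 0.0114). Trim7 fell from 13.4, 13.3, 16.1 and 14.9 TPM to 9.43, 7.57, 8.65 and 8.39 TPM, also without overlap, against 6.39 to 8.72 TPM in 24-month-old WT muscles (log2 fold change -0.75, SE 0.13, limma adjusted p = 0.00229). Skeletal muscle markers were higher in 2 and lower in 2 of 10 cases (median -0.16). Endothelial and fibroblast markers were lower in 2 of 5 cases each (medians -0.46 and -0.19), and denervation and regeneration markers were higher in 1 and lower in 1 of 6. Limma called 0 of 8 leukocyte markers (median 0.37, all above 0), 0 of 5 erythroid markers (4 at an unadjusted p under 0.05, median 0.61) and 0 of 3 adipocyte markers (3 at an unadjusted p under 0.05, median 1.49). Summed adipocyte markers were at 8.76 to 18.2 TPM in young and 11.0 to 70.2 TPM in old UBR4 mKO muscles. The part of these markers in the changes of Trim54 and Trim7 was not tested. Both members' calls were also made without either library that stood apart and with the Y-linked covariate. The Dunn test called 0 of all 10628 genes in this comparison, so it says nothing of these members.

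Trim72 was at 123 ± 8.24 TPM in young and 103 ± 8.97 TPM in old UBR4 mKO muscles (SD, n = 4 each), with all old samples below all young ones but no call (log2 fold change -0.26, limma adjusted p = 0.195). Trim25 (-0.41) and Trim65 (-0.43), a ligase that activates the RNA sensor MDA5, likewise did not overlap and did not pass the test, with limma adjusted p of 0.180 and 0.151. After median-of-ratios scaling 4 members were called, against 5.97% of all genes higher and 5.3% lower. Trim54 (0.53) was higher, and Trim7 (-0.69), Trim65 (-0.37) and Trim72 (-0.20) were lower on the log2 scale, with limma adjusted p of 0.0127, 0.000573, 0.0466 and 0.0347.

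**Figure D5:**
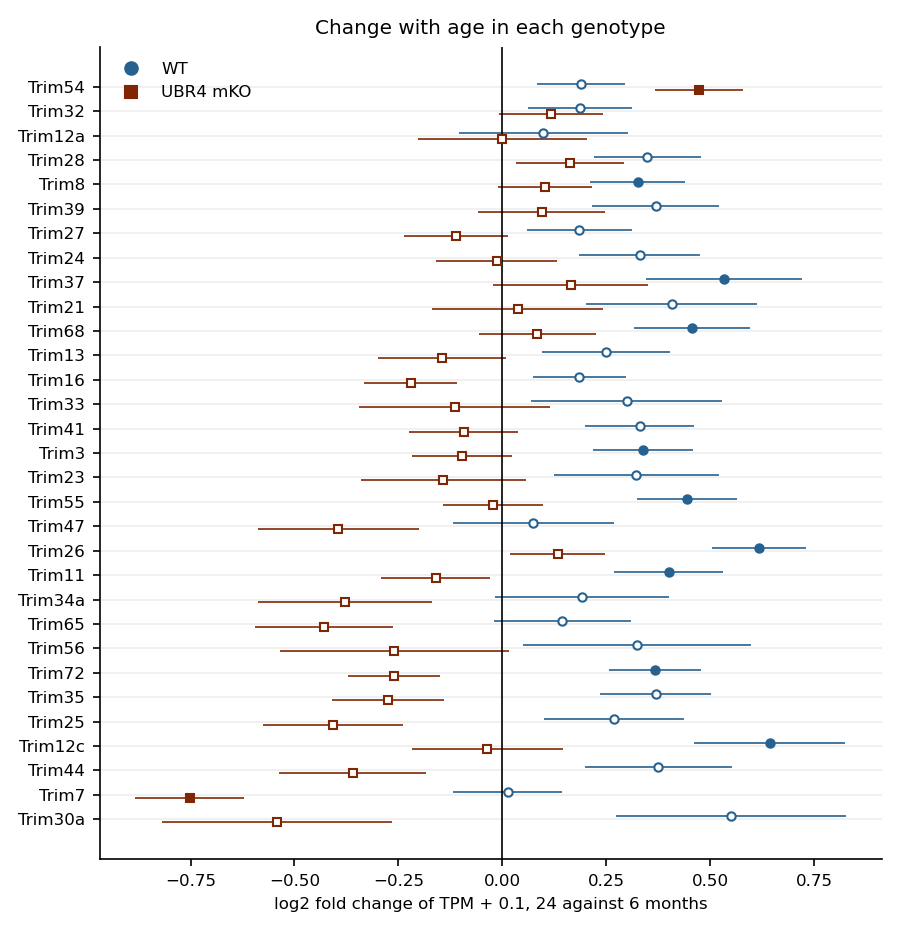
Log2 fold changes of TPM + 0.1 between 24 and 6 months in WT (circles) and UBR4 mKO muscles (squares) for the 31 members, ordered by the difference between the genotypes, with standard errors as bars and filled symbols for an adjusted p under 0.05. Trim54 at the top has its larger rise in UBR4 mKO muscles, and Trim7, near the bottom, its fall.

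The difference of the genotype effect between ages was tested directly as the interaction of genotype and age. It was lower at 24 than at 6 months for 2 of the 31 members, Trim7 (difference of log2 fold changes -0.76, SE 0.19, limma adjusted p = 0.0302) and Trim72 (-0.63, SE 0.16, limma adjusted p = 0.0333), and higher for 0. Over all genes 4.58% were lower and 0.122% higher, and the median was -0.43 for members and -0.31 for all genes. Trim30a had the largest difference, -1.09, without a call (limma adjusted p = 0.0946), and Trim25 was at -0.68 (limma adjusted p = 0.0916). Trim54 was the 1 member of 31 above 0, at 0.28 (SE 0.15, limma adjusted p = 0.193). Denervation and regeneration markers were lower in 4 of 6 cases (median -1.76, 2 called after scaling). Interferon response genes were lower in 2 of 19 (median -0.89), with 17 at an unadjusted p under 0.05, and 0 of 8 leukocyte markers were called (median -0.94, 2 at an unadjusted p under 0.05). The part of these lists in the difference of Trim7 and Trim72 was not tested.

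Both calls of the interaction were close to the threshold and were lost in some settings. After median-of-ratios scaling the differences were -0.44 for Trim7 and -0.29 for Trim72, with limma adjusted p of 0.121 and 0.0753, and 0 members were called, against 1.99% of all genes. Of the fits that left out 1 sample, those without the first or the fourth 6-month-old WT, the third 6-month-old UBR4 mKO, the first or the fourth 24-month-old WT, or the second 24-month-old UBR4 mKO sample called 0 members. In these fits 1.68% to 2.16% of all genes were called lower. Without the third 6-month-old WT, the second or the fourth 6-month-old UBR4 mKO, or the third 24-month-old WT sample the count was 1. There 2.26% to 3.62% of all genes were called lower. The count was 11 without the second 6-month-old WT sample, where 23.1% of all genes were called lower. With the Y-linked covariate it was 3 (3.85%), and without both libraries that stood apart 0 (2.98%).

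The members under 1 TPM were examined apart, since few reads stand behind them. With no filter, 25 of them were above 0 in at least 1 sample, and limma called 3 of these higher at 6 months in UBR4 mKO muscles, against 23.4% of 21223 genes called in either direction. Trim59, which spans the endoplasmic reticulum membrane, was at 0.0695 ± 0.0319 TPM in WT and 0.335 ± 0.198 TPM in UBR4 mKO muscles (SD, n = 4 each). Trim62 was at 0.212 ± 0.0441 and 0.377 ± 0.0469 TPM (SD, n = 4 each), and the third was Trim43a, 97.6% identical to Trim43b. These names were chosen after their values were seen. At 24 months limma called 0 of the 25, with 4 at an unadjusted p under 0.05, against 0.203% of all genes in this fit. With age in WT 2 were called, Trim43a and Trim34b, against 10.8% of all genes.

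Low interferon-linked members did not pass the test at 6 months. Trim30d was at 0.411 ± 0.17 and 0.765 ± 0.344 TPM and Trim5 at 0.221 ± 0.0783 and 0.430 ± 0.0710 TPM in WT and UBR4 mKO muscles (SD, n = 4 each). Trim6 was between 0.0290 and 0.268 TPM, Trim14 between 0.0383 and 0.184 TPM, and Trim30b, Trim30c, Trim34b and Trim38 were at 0 in 1, 10, 7 and 8 of the 16 samples. The 10 members listed at 0 in every sample were Trim15, Trim31, Trim42, Trim43c, Trim50, Trim52, Trim58, Trim60, Trim75 and Trim80, several of them restricted to gut, testis or red cells.

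Genes that work with the family are read against the 43.7% of all genes that were higher at 6 months and their median log2 fold change of 0.33. Of 13 partners that supply or carry ubiquitin, 5 were higher in UBR4 mKO muscles and 0 lower, with a median log2 fold change of 0.26. The largest among those called were the E2 enzymes Ube2v2 (0.45), Ube2d2a (0.37) and Ube2d1 (0.34), on the log2 scale, with limma adjusted p of 0.00209, 0.00425 and 0.0374. After median-of-ratios scaling 0 were higher and 2 lower. Of 13 partners of the muscle members, 7 were higher and 0 lower, led by the Z-disc actin crosslinker Actn2 (0.75), the intermediate filament desmin, Des (0.74), and the autophagy receptor Nbr1 (0.59), with limma adjusted p of 0.000763, 6.57e-05 and 0.00335. After median-of-ratios scaling 3 of the 13 were higher and 1 lower. Among all genes 6.66% were higher and 10.2% lower with this scaling. Relatives of the family under other names had 3 of 5 tested genes higher, Mid2 (0.76), Mid1 (0.66) and Pml (0.57), and TIF1 partners 2 of 6, Setdb1 (0.66) and Cbx3 (0.35), on the log2 scale. After median-of-ratios scaling the relatives had 1 higher and 1 lower, and the TIF1 partners 1 higher and 0 lower.

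At 24 months 0 genes of these 4 lists were called by limma between the genotypes, with 1, 3, 0 and 0 at an unadjusted p under 0.05. With age in WT, 5 muscle partners were higher and 1 was lower, with the autophagy receptor Sqstm1 (0.72), Actn2 (-0.60) and the repair protein dysferlin, Dysf (0.59), changing most on the log2 scale. Limma adjusted p were 0.000415, 0.00695 and 0.00628. Background shares were 24% higher and 1.07% lower, and after median-of-ratios scaling 3 partners were higher and 1 lower. With age in UBR4 mKO muscles Actn2 (-0.75) and the insulin receptor substrate Irs1 (-0.66) fell, with limma adjusted p of 0.00259 and 0.0301. The interaction was lower for Dysf (-0.74), Nbr1 (-0.73) and Des (-0.59), with limma adjusted p of 0.0323, 0.0398 and 0.0193, against 4.58% of all genes. After median-of-ratios scaling Dysf alone was called (-0.41, limma adjusted p = 0.0450), and the median of the 13 went from -0.35 to -0.021.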

How the data were processed

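RNA from 16 tibialis anterior muscles, 4 per group, was analysed. The authors trimmed the reads, mapped them to GRCm38 with CLC Genomics Workbench and took TPM values per gene from it, which they deposited. Kit and instrument differ between the labels (stranded) and the methods, and the annotation release and the use of strand are not given in the sources used here. Samples were grouped by the labels, whose names match the columns. Linear models were run with limma 3.58.1 (R 4.3.3) on log2(TPM + 0.1), which understates changes of low genes, over 10628 genes whose mean TPM reached 1. All 4 groups shared the fit and its variance trend. P-values were Benjamini-Hochberg adjusted over all genes tested, with a threshold of 0.05. Intervals are 1.96 standard errors on either side. The study names Kruskal-Wallis with Dunn tests, which served as an alternative. The other alternatives were pseudocounts of 1 and 0.01, filters, scalings, variance settings, array weights, a replicate block, the groups fitted and leaving out each sample. A Y-linked covariate and a fit without 2 libraries were added after seeing the data.

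The members, role lists and marker lists were chosen with earlier results of these data known. Members named with values were Trim54, Trim55, Trim72, Trim32, the interferon-linked members, the 10 highest by mean TPM and, per comparison, the 3 called members with the largest rise and fall. Trim3, Trim13, Trim23, Trim24, Trim33, Trim59, Trim62 and Trim65 fall outside this rule and were named with their values known. Positions come from GENCODE vM21, promoters from RefSeq (GRCm38.p6; 51 members matched), and near-identical transcripts were found with minimap2 2.31. The 1 symbol left out by the rule is not reported here. Figures were drawn with matplotlib 3.10.9.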

Additional observations from a re-analysis of the deposited data

Results flagged for a closer look

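A single sample far from the other 3 of its group was found in 7 of 128 groups of 4 values, whereas 6.4 are expected by chance. Trim12c was at 2.39 TPM in the second 6-month-old WT sample, against 1.92 to 2.00 TPM in the others. Trim13 was at 6.05 TPM in the second 24-month-old WT sample, against 8.51 to 8.98 TPM. Among the 24-month-old UBR4 mKO samples, the third had 0.957 TPM of Trim30a, against 1.87 to 2.04 TPM. Trim32 was at 4.29 TPM and the summed level of the family at 697 TPM in the fourth 6-month-old UBR4 mKO sample, against 3.68 to 3.77 TPM and 642 to 650 TPM. This library also had the lowest Y-linked level. Trim37 was at 1.39 TPM in the first 6-month-old UBR4 mKO sample, against 1.04 to 1.10 TPM, and Trim8 at 7.25 TPM in the fourth 6-month-old WT sample, against 8.75 to 9.04 TPM.

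The genotype effect was different at 24 and 6 months for Trim7, by -0.76 on the log2 scale (limma adjusted p = 0.0302), and for Trim72, by -0.63 (limma adjusted p = 0.0333). At 24 months the Trim7 groups overlapped, and so did those of Trim72.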

How the results depend on the processing

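The count of called members at 6 months, 19, became 4 with median-of-ratios scaling, where 6.66% of all genes were higher and 10.2% lower. Without mitochondrial genes it was 5 (9.07% and 5.87%). When 1 sample was left out it was 12 to 26, with 24.7% and 57.8% of all genes higher. The lowest was without the fourth WT sample and the highest without the second. At 24 months the count was 0 in every setting run, with at most 1.61% of all genes higher, by array weights. The count with age in WT, 9, became 1 with either rescaling, where 4.44% and 5.82% of all genes were higher. It was 5 with a mean TPM of at least 5 (27.4%) or only the groups compared (22.4%). Array weights gave 20, with 59% of all genes higher, and leaving out both libraries that stood apart gave 15 (38.2%). Dunn tests called 0 members and 0 of all genes here. The count was 1 to 15 when 1 sample was left out. Of all genes 8.41% were higher at the lowest count, and 37.6% and 45.7% at the highest. The count with age in UBR4 mKO, 2, became 4 with median-of-ratios scaling, where 5.97% of all genes were higher and 5.3% lower. It was 0 with Dunn tests, which called 0 of all genes. The interaction count, 2, became 0 with no filter, with median-of-ratios scaling, without mitochondrial genes and without both libraries. Of all genes 1.36%, 0.969%, 1.23% and 2.98% were lower in these settings, in this order. The count was 13 with array weights, where 25.6% of all genes were lower. When 1 sample was left out it was 0 to 11, with 23.1% of all genes lower at the highest. The cause of these moves was not tested.

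Same-numbered samples correlated at -0.155 to 0.181 in their deviations from the group means, so the numbers do not pair the muscles. With a replicate block the counts were 19 at 6 months, 0 at 24 months, 5 with age in WT, 2 with age in UBR4 mKO and 1 for the interaction. Among all genes 38.9% were higher at 6 months, 0.254% at 24 months and 18.1% with age in WT. With age in UBR4 mKO 1.97% were higher and 3.04% lower, and 2.58% were lower for the interaction.

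The summed level, 119 TPM higher in UBR4 mKO muscles at 6 months, became -26.2 with median-of-ratios scaling and 32.9 without mitochondrial genes. With age in WT it went from 110 to -2.20 with median-of-ratios scaling, and with age in UBR4 mKO from 55.9 to 128 without mitochondrial genes. Of 1336 settings of single members, 27 reversed, in members that had not passed the test except Trim8 at 6 months, which had and went to -0.011 with median-of-ratios scaling. Other reversals, on the log2 scale, were as follows. At 6 months Trim32 was at -0.25 with median-of-ratios scaling, -0.16 without mitochondrial genes and -0.0018 to 0.15 when 1 sample was left out. At 24 months it was at -0.019 without mitochondrial genes and -0.042 to 0.14 when 1 sample was left out. Trim55 at 24 months was at 0.034 with array weights, -0.099 to 0.048 when 1 sample was left out and 0.048 without both libraries. With age in WT Trim32 was at -0.080 and -0.00018, and Trim54 at -0.085 and -0.0034, with median-of-ratios scaling and without mitochondrial genes. With age in UBR4 mKO Trim55 was at 0.035 with median-of-ratios scaling, 0.083 with array weights, 0.045 with the Y-linked covariate, 0.129 without both libraries and -0.087 to 0.061 when 1 sample was left out. The interaction of Trim32 was 0.25, 0.14, 0.12 and 0.092 with median-of-ratios scaling, without mitochondrial genes, with array weights and without both libraries, and -0.13 to 0.044 when 1 sample was left out. Read depth is unknown in TPM, so its limit on low members cannot be given.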
